A study of Mus musculus with 7 samples.

Results

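A set of 10 germline and meiosis genes was followed across the animals, genotypes and cell classes of mouse small cell lung cancer (SCLC) tumors: Dmc1, Tex14, Ybx2, Cntd1, Banf2, Sycp1, Sycp3, Stag3, Smc1b and Meioc. The genes were matched by symbol, 10 of the 56941 genes in each table, and all 10 were found in the tables of all 4 animals. The set was selected on the measured levels of these genes in the tumors, between animals, between genotypes and between tumor and other nuclei, so its differences between the genotypes and between tumor and other nuclei are given as descriptions, and calls of these genes in those comparisons are counted beside the share of all genes called and are not read as tests. Tumors of 2 RP and 2 RPC animals, all male, were taken fresh-frozen at endpoint and profiled by single-nucleus RNA sequencing, with 38254 of 38353 nuclei kept. RP animals carried Rb1 fl/fl and Trp53 fl/fl, and RPC animals carried these alleles together with a loss of Casp8 that the labels write as Casp8-/- and the study describes as a conditional allele. All animals had inhaled an adenovirus that expresses Cre recombinase from the ubiquitous CMV promoter into the trachea as young adults, so any airway cell the virus reached could recombine, and the conditional Rb1 and Trp53 alleles were shared by all animals, the RP controls included. No animal without these alleles was analysed here, and each animal is 1 replicate (n = 2 per genotype). Whole-gene counts of the targeted Casp8 were not lower in the RPC tumors (Casp8 at 56.9 and 60.7 CPM, or transcripts per 1000000 transcripts, in the RP tumors, and 91.8 and 66.8 in the RPC tumors); the counts cover the whole gene and not the deleted part alone, so they check no label.

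Meiosis is the specialized cell division that makes eggs and sperm. Its genes build a protein axis along each chromosome, break and repair the DNA by recombination between the parental copies, and zip the copies together in the synaptonemal complex. Outside ovary and testis most of these genes are kept silent, in part by DNA methylation and by repressor complexes that hold E2F6 or MGA with MAX, and their expression in tumors is known as cancer-testis or germline gene expression.

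A total of 31792 nuclei fell into 11 clusters that were called tumor-like (6998 and 7143 nuclei in RP1 and RP2, 9128 and 8523 in RPC1 and RPC2), 4136 nuclei were named as other lung or immune cell classes, and 2326 stayed unnamed. A cluster was called tumor-like where no other marker list scored above 0.5 and the level of the neuroendocrine markers was above the median of the named non-tumor clusters. Clusters of no other class with under 0.5 times the animals' median depth also needed a neuroendocrine marker among their 10 leading genes. A cluster of 959 nuclei, with a best other score of 0.12 and a relative depth of 0.367, stayed unnamed by this depth rule. The neuroendocrine score alone did not separate the classes: it was -0.21 to 0.38 in tumor-like clusters and -0.08, -0.13 and -0.17 in deep alveolar type 2, B cell and club clusters. Median transcripts per kept nucleus ranged from 2223 to 3392 between animals, and no cell barcode was shared between them. Nuclei of the other named classes carried much tumor RNA: the 14 neuroendocrine markers stood there at a median of 68.2% to 81.5% of their level in tumor-like nuclei, and none of the 14 was at 0. In a group of 5 named clusters with little tumor RNA (1319 nuclei) that median was 19.9% to 35%, and these clusters are given beside the other classes below. They were macrophage- or monocyte-like (258 and 245 nuclei), club-like (433), alveolar type 2-like (202) and B cell-like (181). Each animal was loaded into wells of its own, so the well and the animal cannot be told apart.

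The level of a gene is given as CPM over the summed transcripts of an animal's nuclei, with the exact 95% Poisson interval, which covers counting error only. CPM is not corrected for gene length, so levels are compared for a gene between animals and classes and never between genes. The plot of levels by animal shows 7 genes with a level of at least 2 CPM in 1 or more tumors and 3 genes near 0 in all 4.

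**Figure D1:**
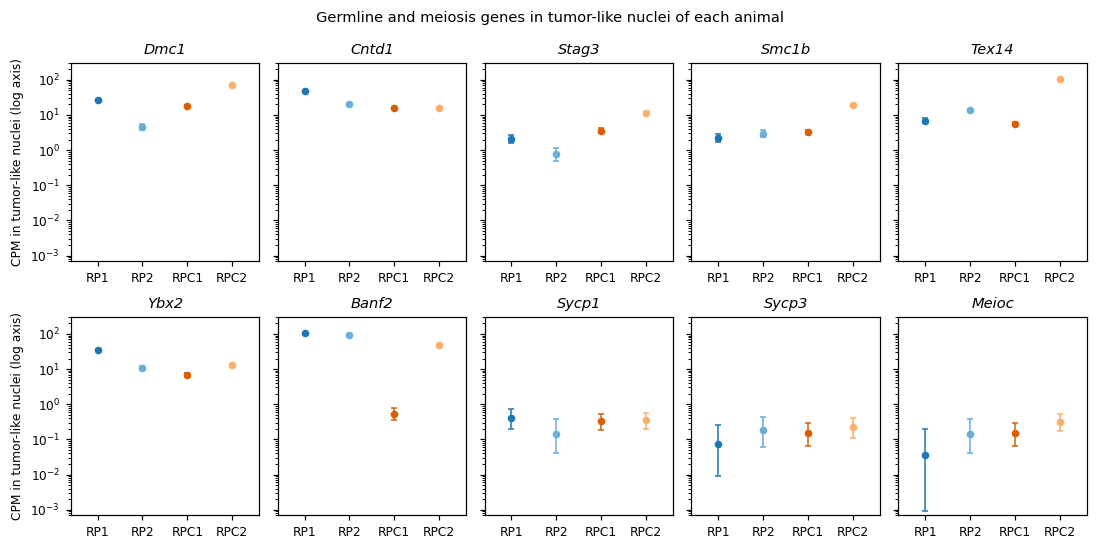
Level of the 10 germline and meiosis genes in tumor-like nuclei of each animal, in CPM on a log axis, with 1 point per animal and bars for exact 95% Poisson intervals. Dmc1, Stag3, Smc1b and Tex14 were highest in RPC2, Cntd1 and Ybx2 in RP1, Banf2 was near 0 in RPC1 alone, and Sycp1, Sycp3 and Meioc stayed under 1 CPM in all 4 animals.

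Dmc1 is the meiotic strand-exchange recombinase, which pairs a broken DNA end with the other parental chromosome (gene on chromosome 15, 79445691 to 79489351, minus strand, GRCm39). Its level in tumor-like nuclei was 26.8 CPM in RP1 (from 24.9 to 28.8), 4.5 in RP2 (from 3.74 to 5.37), 17.6 in RPC1 (from 16.5 to 18.8) and 72.6 in RPC2 (from 70.2 to 75.2). No interval overlapped another, and the genotypes did overlap, since RP1 stood above RPC1. With RP as the base, the log2 fold change to RPC came to 1.47 (SE 1.01), and it was 0.11 without RPC2 and 3.30 without RP1.

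Cntd1 is a cyclin-like protein that matures crossovers (chromosome 11, 101169832 to 101187143, plus strand). Its level was 48.6 CPM in RP1 (from 46 to 51.2), 20.4 in RP2 (from 18.7 to 22.1), 15.8 in RPC1 (from 14.7 to 16.9) and 15.6 in RPC2 (from 14.5 to 16.8). Both RP tumors were above both RPC tumors, and the log2 fold change was -1.20 (SE 0.43), or -0.42 without RP1. Cntd1 overlaps Coa3 at its start and, more widely, Becn1, an autophagy gene, both on the opposite strand, and the sources used here do not state whether strand was used in counting, so reads of the overlap cannot be assigned with certainty; Becn1 ranged from 46.1 to 64.4 CPM over the tumors and was lowest in RP1, where Cntd1 was highest.

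Stag3 and Smc1b are the meiotic versions of cohesin subunits, which hold sister chromatids in the chromosome axis. Stag3 (chromosome 5, 138278502 to 138310655, plus strand) was measured at 2.11 CPM in RP1 (from 1.6 to 2.73), 0.769 in RP2 (from 0.476 to 1.17), 3.59 in RPC1 (from 3.1 to 4.14) and 11.1 in RPC2 (from 10.1 to 12.1). Smc1b (chromosome 15, 84948882 to 85016204, minus strand) was at 2.22 CPM in RP1 (from 1.7 to 2.85), 2.96 in RP2 (from 2.35 to 3.68), 3.27 in RPC1 (from 2.8 to 3.79) and 19.5 in RPC2 (from 18.3 to 20.8). In both genes the RPC tumors lay above the RP tumors, but for Smc1b the intervals of RP2 and RPC1 overlapped and the difference rested on RPC2. The log2 fold changes were 2.29 (SE 0.76) for Stag3 and 2.09 (SE 0.86) for Smc1b, and without RPC2 they were 1.25 and 0.28.

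Tex14 keeps open the intercellular bridges that join dividing germ cells (chromosome 11, 87295793 to 87446651, plus strand). Its level was 6.92 CPM in RP1 (from 5.97 to 7.97), 13.7 in RP2 (from 12.3 to 15.1), 5.66 in RPC1 (from 5.04 to 6.34) and 104 in RPC2 (from 101 to 107). The RPC tumors held both the lowest and the highest value, so the genotypes overlapped. The log2 fold change was 2.38 (SE 1.27), and it was -0.92 without RPC2. Within RPC2 the level was 100 CPM in 1 well and 108 in the other. The wells of an animal lay farther apart for Ybx2 and Banf2, as given below.

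Ybx2 is a germ cell Y-box protein that binds and stores messenger RNA (chromosome 11, 69826474 to 69832432, plus strand). Its level was 36 CPM in RP1 (from 33.8 to 38.3), 10.8 in RP2 (from 9.63 to 12.1), 6.76 in RPC1 (from 6.08 to 7.5) and 12.8 in RPC2 (from 11.8 to 13.9). RP1 stood apart from the other 3 tumors, among which the genotypes overlapped, and the log2 fold change of -1.32 (SE 0.65) became -0.18 without RP1. By well, Ybx2 was at 28 and 41.3 CPM in RP1, 11.6 and 9.96 in RP2, and 16.6 and 9.07 in RPC2. Ybx2 overlaps Eif5a at its start and Slc2a4 at its end, both on the opposite strand, and Eif5a also was highest in RP1, by less (25.2 CPM, against 15.2 to 23.2 in the others).

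Banf2 is a paralog of Banf1, a small protein that ties chromatin to the nuclear envelope (chromosome 2, 143874944 to 143915899, plus strand). Its level was 104 CPM in RP1 (from 99.8 to 107), 90.8 in RP2 (from 87.3 to 94.4), 0.532 in RPC1 (from 0.353 to 0.769) and 47.7 in RPC2 (from 45.7 to 49.7). Both RPC tumors were below both RP tumors, by a small factor in RPC2 and to 28 transcripts in all 9128 tumor-like nuclei of RPC1. The log2 fold change was -2.06 (SE 1.60), -1.06 without RPC1 and -7.56 without RPC2. By well, Banf2 was at 73 and 124 CPM in RP1, 71.5 and 114 in RP2, and 51.8 and 43.6 in RPC2. The spread between wells was thus wider than the counting intervals of these animals.

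Sycp1 and Sycp3, structural proteins of the synaptonemal complex, and Meioc, which extends meiotic prophase, were near absent. Sycp1 (chromosome 3, 102725709 to 102843455, minus strand) had 11, 4, 17 and 16 transcripts in tumor-like nuclei, in the order of RP1, RP2, RPC1, RPC2. Sycp3 (chromosome 10, 88295431 to 88309099, plus strand, inside Chpt1 on the opposite strand) had 2, 5, 8 and 10 transcripts, and Meioc (chromosome 11, 102554542 to 102573063, plus strand) had 1, 4, 8 and 14. All 3 stayed at or below 0.4 CPM in each tumor, RPC2 included, where Dmc1, Stag3 and Smc1b were highest.

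Across all genes, the quasi-likelihood test of edgeR called 0 of 20069 genes tested between RPC and RP tumor-like nuclei (0%), with 3056 at an unadjusted p under 0.05, while DESeq2 called 649 genes (3.72%). Of the 10 germline and meiosis genes 8 entered the test, and none was called by edgeR. Among the genes that DESeq2 called was Stag3 (log2 fold change 2.32, SE 0.69), which is not read as a test. The genotypes did not overlap for 4 of these 8 genes (Cntd1, Banf2, Stag3 and Smc1b), beside 50.7% of all genes tested. Most of the differences described above thus rested on 1 animal of a genotype.

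The animal with the highest or lowest level of a gene was compared with the mean of the other 3. The same was done for the neighbors of the gene within 1 Mb that had a mean of at least 5 CPM. Banf2 in RPC1 was at a log2 ratio of -7.0, while its 14 neighbors had a median of 0.31 and a range of -0.30 to 0.82. Tex14 in RPC2 was at 3.56, with 27 neighbors at a median of 0.06. Smc1b in RPC2 was at 2.75, with 16 neighbors at a median of 0.02, and Stag3 was at 2.31, with 32 neighbors at -0.08. Dmc1 in RPC2 was at 2.15, with 40 neighbors at a median of 0.00 and none at 1 or above. RP2 lay farther out than RPC2 on the low side for Dmc1 (-3.09, neighbors at a median of 0.01) and for Stag3 (-2.71, neighbors at -0.02). In RP1, Ybx2 was at 1.82, with 52 neighbors at a median of 0.19 and 2 of them at 1 or above. Cntd1 in RP1 was at 1.49, with 50 neighbors at a median of 0.11. No neighborhood median lay more than 0.31 from 0, so the genes stood apart from their chromosomal surroundings. Among 11464 genes with a mean of at least 5 CPM, 1 was as low in RPC1 as Banf2 or lower, and 2 were as high in RPC2 as Tex14 or higher, counts that include the gene itself.

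Promoters are shown for the 4 genes that were highest in RPC2 and, for contrast, for Banf2. They are RefSeq sequences of build GRCm38.p6 (coordinates of that build, unlike those of the genes above), 300 bases each from 250 before to 50 after the annotated start, written 5′ to 3′ along the gene. Capitals mark the core of the site bound by E2F factors, GCGGGA, and the E-box bound by MAX and MGA, CACGTG, on either strand.
Dmc1, chr15:79605060-79605359, minus strand: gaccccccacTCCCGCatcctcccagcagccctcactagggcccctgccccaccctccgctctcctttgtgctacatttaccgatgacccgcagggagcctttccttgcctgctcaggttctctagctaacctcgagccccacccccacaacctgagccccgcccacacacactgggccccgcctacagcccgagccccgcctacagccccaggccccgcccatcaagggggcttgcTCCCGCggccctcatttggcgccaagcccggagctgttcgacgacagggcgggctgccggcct
Tex14, chr11:87404815-87405114, plus strand: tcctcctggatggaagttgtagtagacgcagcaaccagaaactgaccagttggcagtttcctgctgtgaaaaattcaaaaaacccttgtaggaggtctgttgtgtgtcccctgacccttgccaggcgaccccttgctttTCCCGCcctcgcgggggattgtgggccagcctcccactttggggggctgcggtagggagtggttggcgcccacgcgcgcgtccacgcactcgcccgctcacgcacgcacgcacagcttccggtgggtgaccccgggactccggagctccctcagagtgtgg
Stag3, chr5:138280259-138280558, plus strand: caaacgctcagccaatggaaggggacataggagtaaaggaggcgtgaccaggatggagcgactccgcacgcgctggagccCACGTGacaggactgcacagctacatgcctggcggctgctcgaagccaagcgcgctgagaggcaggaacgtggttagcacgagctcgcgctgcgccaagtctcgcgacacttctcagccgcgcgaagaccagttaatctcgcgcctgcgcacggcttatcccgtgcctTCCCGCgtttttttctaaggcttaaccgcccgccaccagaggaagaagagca
Smc1b, chr15:85131908-85132207, minus strand: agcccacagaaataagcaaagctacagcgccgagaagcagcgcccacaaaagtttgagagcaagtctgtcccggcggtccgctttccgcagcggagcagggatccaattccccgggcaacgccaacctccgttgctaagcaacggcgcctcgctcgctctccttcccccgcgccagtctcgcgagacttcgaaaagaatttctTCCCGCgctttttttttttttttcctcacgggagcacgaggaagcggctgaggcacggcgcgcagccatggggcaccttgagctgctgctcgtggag
Banf2, chr2:144032852-144033151, plus strand: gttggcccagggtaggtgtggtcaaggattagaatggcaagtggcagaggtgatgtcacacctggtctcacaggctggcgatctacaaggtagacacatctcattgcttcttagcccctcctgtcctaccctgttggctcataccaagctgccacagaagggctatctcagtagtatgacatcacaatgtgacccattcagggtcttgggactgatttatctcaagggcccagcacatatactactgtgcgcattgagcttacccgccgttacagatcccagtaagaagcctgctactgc

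Each of the 4 promoters of the genes highest in RPC2 held the E2F core, and Stag3 also held an E-box, while the Banf2 promoter held neither. Over all members, 11 promoters of the 10 genes were found, since Ybx2 has 2 annotated starts. The E2F core was in 9 of the 11, against 20% of 32851 promoters of this length, and the E-box in 4 of the 11 (Cntd1, Stag3, Sycp1 and Sycp3), against 7.15%. A longer E2F motif, GGCGGGA, which overlaps the core, had been searched first, and its count was 2 of 11, against 11.3% of all promoters. The promoters also differed in CpG content: Banf2 had 4 CpG and a ratio of observed to expected CpG of 0.20, whereas the other 10 promoters had 12 to 40 CpG and ratios of 0.57 to 1.08, above the median ratio of 0.38 over all promoters. The E2F core and the E-box each contain a CpG, and no share was taken over promoters of like CpG content. The shares above are therefore a description and no enrichment is read from them. Sycp1, Sycp3 and Meioc, the genes near 0, held the E2F core as well, so the match did not separate the transcribed genes from the silent ones.

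The nuclei that carried a transcript were counted after each nucleus was thinned to 1000 transcripts, which put the animals at equal depth and left out between 131 and 725 shallower tumor-like nuclei per animal. Tex14 was found in 849 of 8155 tumor-like nuclei of RPC2 (10.4%, exact binomial 95% interval 9.76% to 11.1%), and in 0.433% to 1.3% of nuclei in the other animals. Dmc1 was found in 7.77% of the RPC2 nuclei (7.2% to 8.38%), and in 0.543% to 2.52% in the others. Banf2 was in 9.64% of nuclei in RP1, 8.38% in RP2, 5.42% in RPC2 and 0.0667% in RPC1, which is 6 of 8997 nuclei. Without thinning the share in RPC2 was 28.8% for Tex14 and 22.1% for Dmc1, so the shares depend on depth. Endothelial-like nuclei were set beside them, and whether endothelial cells transcribe these genes was not tested. There Tex14 was in 6 of 151 thinned RPC2 nuclei (3.97%) and Dmc1 in 3 of 151 (1.99%). These nuclei had a median of 2597 transcripts before thinning, against 2991 in the tumor-like nuclei. Both shares in the tumor-like nuclei of RPC2 were above these. The endothelial-like nuclei of RPC2 held the neuroendocrine markers at a median of 84.2% of the tumor-like level, so they are no tumor-free background. In the other animals Tex14 was at 15.3 (RP1), 17.1 (RP2) and 3.71 CPM (RPC1) in endothelial-like nuclei. The tumor-like levels were 6.92, 13.7 and 5.66, with overlapping intervals in each animal. Banf2 in endothelial-like nuclei of RP1 was in 4 of 84 (4.76%), with an interval of 1.31% to 11.7% that holds the tumor-like share. Without thinning, Sycp3 was in 2 and Meioc in 1 of the 6998 tumor-like nuclei of RP1.

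Within a tumor the genes were spread unevenly over the tumor-like clusters, as the heat map by cluster shows. The clusters were built on expression, so these levels are a description. In RPC2, Dmc1 was at 219 CPM (206 to 233) in cluster 5, a group of 2017 nuclei whose leading genes include Dmc1 and Tex14 themselves, and at 71.5 in cluster 4, 33.2 in cluster 2 and 17.3 in cluster 1. Tex14 had the same order of clusters in RPC2, with 209, 109, 70.4 and 36.1 CPM. Stag3 and Smc1b were instead highest in cluster 4, at 14.7 and 21.7 CPM, and lower in cluster 5, at 5.76 and 15.8.

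Nuclei of other animals that fell into the same clusters did not carry the same set of genes. In RP1, the 324 nuclei of cluster 5 had Dmc1 at 134 CPM (106 to 166) but Tex14 at 5.01 (1.03 to 14.6). In RP2, the 249 nuclei of cluster 2 had Tex14 at 86.7 CPM (65.7 to 112), against 10.9 and 12.3 in the 2 main clusters of that animal, and Dmc1 at 6.09. Banf2 in these RP2 nuclei was at 4.57 CPM, against 66.4 and 115 in the main clusters. In RPC1, 590 nuclei of cluster 13 held 42.5% of all Dmc1 transcripts of that tumor while being 6.46% of its tumor-like nuclei, and Smc1b (11.3 CPM) and Stag3 (9.57) were also highest there. Cluster 13 was led by neuronal genes such as Grik2, Erbb4 and Nrxn3. In RP1, Ybx2 and Cntd1 were both highest in cluster 11, at 81.5 and 92.2 CPM, and Ybx2 and Cntd1 were among the 10 leading genes of that cluster.

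**Figure D2:**
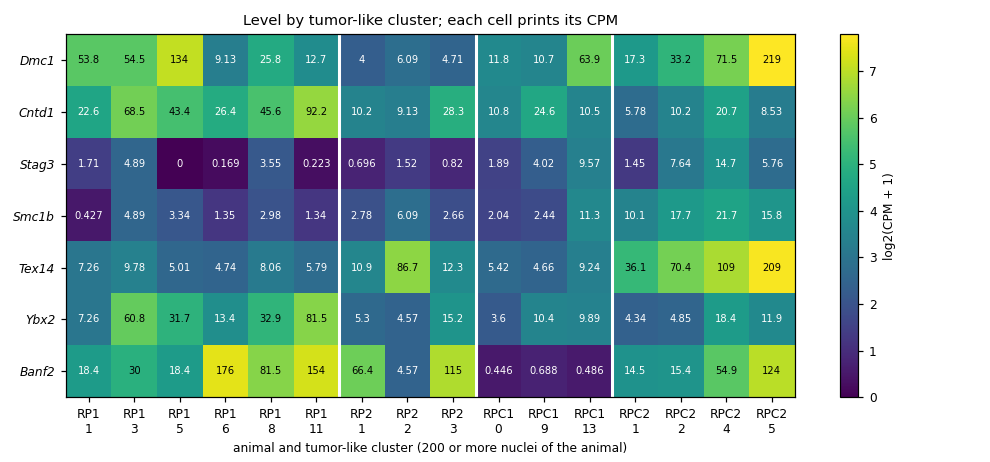
Level of 7 genes by animal and tumor-like cluster, for clusters with 200 or more nuclei of the animal. Color gives log2(CPM + 1) and each cell prints the CPM; Dmc1 and Tex14 peak in cluster 5 of RPC2, at 219 and 209 CPM, and Banf2 stays under 1 CPM in all 3 clusters of RPC1.

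Tumor-like nuclei were next set against all other named nuclei of the same animals. Ybx2 was higher in tumor-like nuclei in 4 of 4 animals, by log2 ratios of 0.44 to 0.48, and Cntd1 in 4 of 4, by 0.02 to 0.50. Banf2 was higher by 0.57 in RP1, RP2 and RPC2 and lower by 0.27 on the log2 scale in RPC1, where it rested on 28 and 11 transcripts. Tex14 was lower in tumor-like nuclei in RP1, RP2 and RPC1, with log2 ratios of -0.98, -0.15 and -0.48, and higher in RPC2, by 0.29. The log2 fold change over the animals was 0.61 (SE 0.09) for Banf2 and 0.53 (SE 0.09) for Ybx2. Of the 7 genes that passed the filter these 2 were called, beside 18.5% of 18877 genes called higher, 19.7% called lower and 38.2% called in either direction; since the genes were selected on this difference, nothing is read from that count. In bulk sums of this kind, fewer cells of a type and less RNA per cell cannot be told apart.

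The ratios of Ybx2, Banf2 and Cntd1 were larger against nuclei with less tumor RNA. Against the 5 clusters with little tumor RNA, the log2 fold change was 3.03 (SE 0.43) for Ybx2, 2.17 (SE 0.24) for Banf2 and 1.38 (SE 0.39) for Cntd1. Dmc1 went from 0.26 against all other named nuclei to 0.89 (SE 0.34) here. Stag3 went from 0.23 to 1.52 (SE 1.02), with 2, 3, 0 and 0 transcripts in these clusters. Smc1b had 0.00 and -0.03, and Tex14 had -0.17 and -0.69. This comparison was chosen after seeing the data and is again a description for the set; of all genes, 45.7% were called in it. Dmc1 there was at 11.8 and 5.96 CPM in the RP animals and at 16.9 and 20.4 in the RPC animals, on 6, 6, 29 and 16 transcripts. It was lower there than in tumor-like nuclei in RP1 and RPC2, while in RP2 and RPC1 the intervals of both groups overlapped. Tex14 behaved in the opposite way. It was at 49 CPM (31.7 to 72.3) in these clusters of RP1, 22.8 (14.5 to 34.3) in RP2 and 15.8 (10.4 to 22.9) in RPC1, each higher than in the tumor-like nuclei of the same animal, though the intervals overlapped in RP2, and at 42.1 (29 to 59.2) in RPC2, where it was lower.

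Among the other classes, macrophages stood out for Tex14. Macrophage- or monocyte-like nuclei had Tex14 at 35, 27.1, 25.5 and 101 CPM in the 4 animals, on 36, 51, 48 and 151 transcripts, whereas endothelial-like nuclei had 15.3, 17.1, 3.71 and 69.1 CPM. In RP1, RP2 and RPC1 the macrophage level was above the tumor-like level of the same animal, with intervals that did not overlap, and in RPC2 the levels of both were alike (101 and 104 CPM). The macrophage-like nuclei carried the 14 neuroendocrine markers at 60.9% to 73.6% of the tumor-like level. Many of them are also in the clusters with little tumor RNA, so the higher Tex14 level there is not a separate observation. Against macrophage- or monocyte-like nuclei alone the log2 fold change of Tex14 was -1.09 (SE 0.29), and against endothelial-like nuclei alone it was 0.23 (SE 0.23), with 32.5% and 17.5% of genes called.

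Sycp1, near 0 in tumor-like nuclei, had its highest count elsewhere. Of 68 Sycp1 transcripts in RPC1, 47 were in the 723 club-like nuclei, 4.06 CPM against 0.323 in tumor-like nuclei. The largest club-like cluster of RPC1 (478 nuclei) had a median of 13913 transcripts per nucleus over all animals, 4.17 times the animals' medians.

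**Figure D3:**
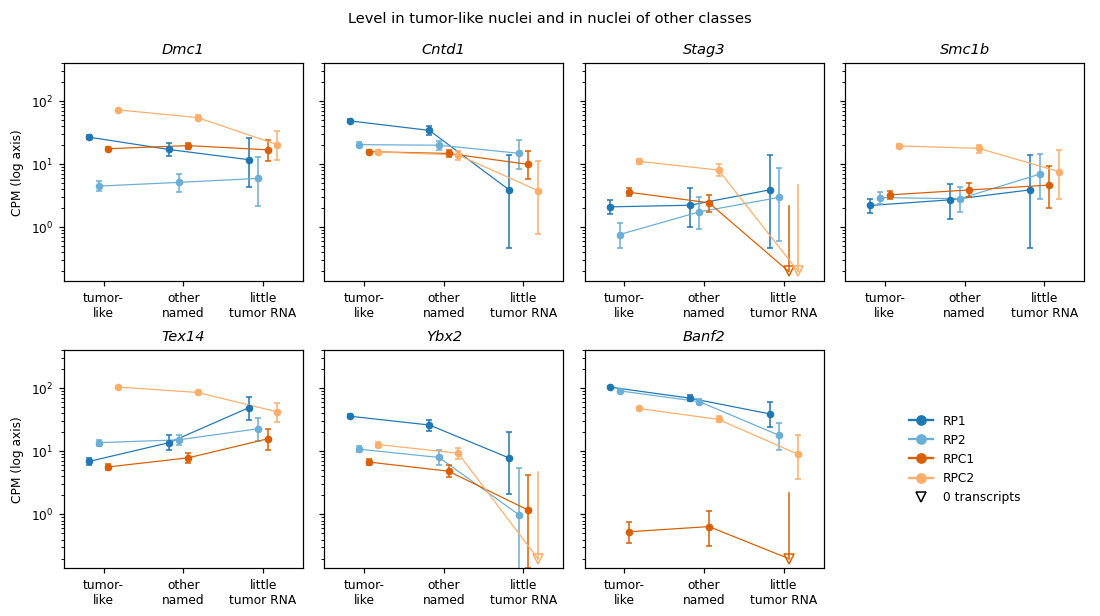
Level of 7 genes in tumor-like nuclei, in all other named nuclei and in the 5 named clusters with little tumor RNA, in CPM on a log axis, with 1 line per animal, bars for exact 95% Poisson intervals and open triangles for 0 transcripts. Ybx2 and Banf2 are lowest in the clusters with little tumor RNA in RP1, RP2 and RPC2, while Tex14 is higher there than in tumor-like nuclei in RP1, RP2 and RPC1.

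The cell cycle was not itself used to choose the genes. It is still tied to the difference between tumor-like and other named nuclei, on which they were selected. In that comparison 25 of 25 mitosis genes and 18 of 25 S phase genes were called higher. The tests of the set below are therefore not independent of its selection. Tumor-like nuclei thinned to 1000 transcripts were called S-phase-rich (2 or more transcripts from 25 S phase genes and fewer from 25 mitosis genes), mitosis-rich (the converse) or non-cycling (0 of both), and summed per animal with the animal as a block. There were 2085 to 3618 S-phase-rich, 2276 to 3746 mitosis-rich and 370 to 508 non-cycling nuclei per animal, and both comparisons share the non-cycling nuclei. These are ranges of a count and not cell types, since 648 to 770 nuclei per animal had exactly 1 list transcript and entered no group. Of the 14 neuroendocrine markers, 8 were lower and 1 was higher in S-phase-rich nuclei, with the same numbers in mitosis-rich nuclei, and 3 of 5 tested macrophage markers were higher in mitosis-rich nuclei. Median transcripts per nucleus were 1965 to 2629 in non-cycling, 2371 to 3127.5 in S-phase-rich and 2943 to 4266 in mitosis-rich nuclei. The part of these differences in the results was not tested.

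Dmc1 rose in S-phase-rich nuclei. It went from 11.2 to 35.4 CPM in RP1, from 9.29 to 20.2 in RPC1 and from 14.9 to 99.4 in RPC2, and was at 3.76 and 3.3 CPM in RP2. The increase was seen in 3 of 4 animals and gave a log2 fold change of 1.84 (SE 0.26, edgeR adjusted p = 5.09e-05), or 1.15 without RPC2. DESeq2 gave 1.40 with an adjusted p of 0.0673, so the call depends on the tool. In mitosis-rich nuclei Dmc1 was at 24.6, 5.38, 16.8 and 71 CPM, higher than in non-cycling nuclei in 4 of 4 animals (log2 fold change 1.45, SE 0.23, edgeR adjusted p = 0.000164). The intervals of the non-cycling and mitosis-rich nuclei overlapped in RP2 (1.38 to 8.18 and 4.13 to 6.9) and in RPC1 (4.95 to 15.9 and 15.3 to 18.5). The non-cycling nuclei held only 11, 6, 13 and 19 Dmc1 transcripts in RP1, RP2, RPC1 and RPC2.

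Ybx2 rose in both groups, and most in mitosis-rich nuclei. From non-cycling to mitosis-rich nuclei it went from 12.2 to 51.6 CPM (RP1), from 2.5 to 17.4 (RP2), from 0.715 to 9.32 (RPC1) and from 1.57 to 16.8 (RPC2), with 12, 4, 1 and 2 transcripts in the non-cycling nuclei. The direction was the same in 4 of 4 animals (log2 fold change 2.59, SE 0.26, edgeR adjusted p = 8.29e-07). In S-phase-rich nuclei the log2 fold change was 1.34 (SE 0.34, edgeR adjusted p = 0.00633), again in 4 of 4 animals.

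Cntd1 was called in mitosis-rich nuclei alone. The RP tumors went from 22.4 to 66.3 and from 10.6 to 30.6 CPM, and the RPC tumors from 8.58 to 20.2 and from 7.83 to 19.5 (log2 fold change 1.44, SE 0.17, edgeR adjusted p = 5.12e-06, 4 of 4 animals). In S-phase-rich nuclei its log2 fold change was 0.37 (SE 0.19, edgeR adjusted p = 0.157). Whether the mitosis-rich and the S-phase-rich changes differ was not tested.

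Stag3 had 1, 1, 2 and 4 transcripts in the non-cycling nuclei and 37, 10, 121 and 353 in the mitosis-rich nuclei of RP1, RP2, RPC1 and RPC2. Its level was higher in mitosis-rich nuclei in 4 of 4 animals (log2 fold change 1.70, SE 0.43). At its level in the non-cycling nuclei Stag3 would not have passed the filter on low counts, so its increase decided that it was tested, and no p is given for it; it was called by edgeR but not by DESeq2, and it did not pass the filter in the S phase comparison or without RPC2. Banf2 rose in RP1, RP2 and RPC2, from 84.4, 45.1 and 13.3 CPM to 101, 85.9 and 50.9 in S-phase-rich nuclei (log2 fold change 0.83, SE 0.18, edgeR adjusted p = 0.0021) and to 104, 110 and 51.8 in mitosis-rich nuclei (1.02, SE 0.19, edgeR adjusted p = 0.000509). In RPC1 it had 0 transcripts in the non-cycling nuclei.

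Tex14 and Smc1b did not pass the test in either group. Tex14 in S-phase-rich nuclei was above non-cycling nuclei in RP1 and RPC2 and below them in RP2 and RPC1 (log2 fold change 0.60, SE 0.30, edgeR adjusted p = 0.158), and it passed without RP2 (1.18, edgeR adjusted p = 0.00322) and without the filter on low counts (0.73, edgeR adjusted p = 0.00125), while without RPC2 its direction turned (-0.42, edgeR adjusted p = 0.338). In mitosis-rich nuclei its log2 fold change was 0.44 (SE 0.31, edgeR adjusted p = 0.33), again with a call without RP2 (1.03, edgeR adjusted p = 0.0154) and the opposite direction without RPC2 (-0.52, edgeR adjusted p = 0.25). For Smc1b the log2 fold changes were 0.38 (SE 0.36) in S-phase-rich and 0.55 (SE 0.33) in mitosis-rich nuclei, and Sycp1, Sycp3 and Meioc did not pass the filter on low counts. In all, 3 of 6 tested genes of the set were called higher in S-phase-rich nuclei, beside 14% of 13256 genes called higher and 28.2% called in either direction. In mitosis-rich nuclei 5 of 7 were called higher, beside 12.8% of 14374 genes called higher and 26.4% in either direction, and none of the set was called lower in either comparison. The 5 include Stag3, which entered the test through its level in mitosis-rich nuclei, and 4 of 6 remain without it. A gene had to reach a minimum count to be tested, so these counts do not cover the 10 genes and are given as a description.

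**Figure D4:**
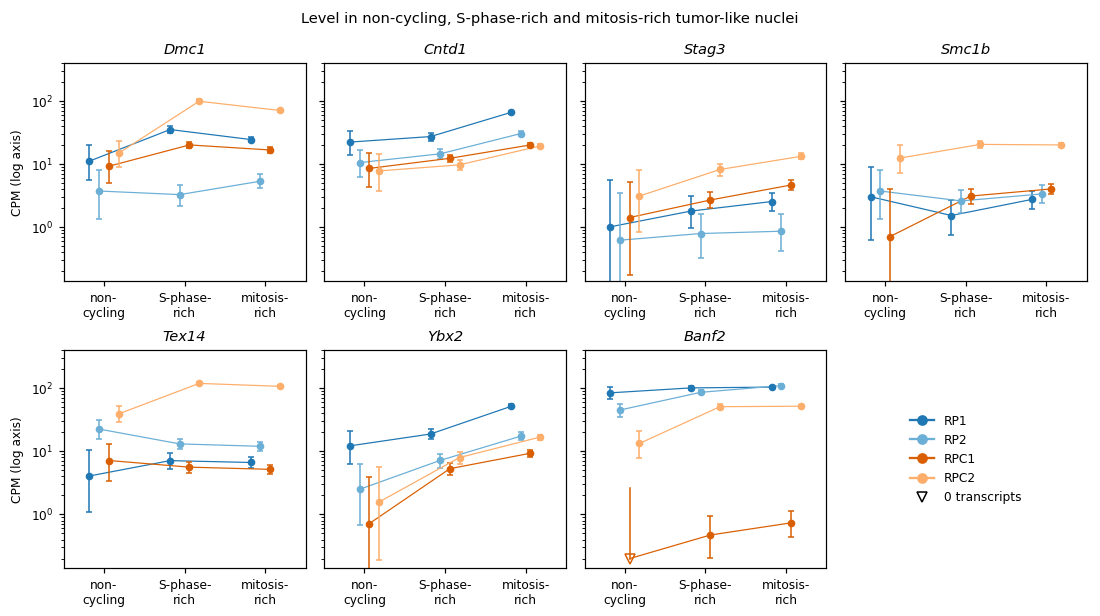
Level of 7 genes in non-cycling, S-phase-rich and mitosis-rich tumor-like nuclei, in CPM on a log axis, with 1 line per animal, bars for exact 95% Poisson intervals and open triangles for 0 transcripts. Ybx2 and Cntd1 rise to their highest level in mitosis-rich nuclei in all 4 animals, and Dmc1 rises in S-phase-rich nuclei in RP1, RPC1 and RPC2 but not in RP2.

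Other genes of the germline programs were read from fixed lists. Of 28 meiotic recombination genes, 14 could be tested in the S phase comparison and 6 were higher, none lower, beside 14% of all genes called higher and 14.2% called lower, with a median log2 fold change of 0.63, against -0.03 over all genes. The 4 with the widest change were Zcwpw1, a reader of the marks set by Prdm9 (1.51, SE 0.17, edgeR adjusted p = 3.22e-06), Iho1, which helps start DNA breaks (1.23, SE 0.40, edgeR adjusted p = 0.0287), Psmc3ip, a partner of Dmc1 (1.13, SE 0.25, edgeR adjusted p = 0.0022), and Msh5, which stabilizes crossover intermediates (edgeR adjusted p = 0.000947, with 1.48 in mitosis-rich nuclei). In mitosis-rich nuclei 8 of 17 were higher and none lower, beside 12.8% and 13.5% of all genes, led by Mnd1, which acts in a complex with Psmc3ip (2.62, SE 0.48, edgeR adjusted p = 0.000517). The call for Iho1 was lost in both comparisons with DESeq2 and without RP2 or RPC1. A gene could pass the filter on low counts through its level in the cycling nuclei alone, which favors calls of higher genes. Whether Mnd1 or other list genes entered that way was not checked, so the counts of this list and of those below are descriptions.

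The other germline lists had few genes that could be tested in the cell cycle. Of 16 genes of the chromosome axis and of synapsis 6 were tested, and Syce2, a central element protein, was the 1 called in S-phase-rich nuclei (0.71, SE 0.18, edgeR adjusted p = 0.00766), and none of 7 tested was called in mitosis-rich nuclei, where Sun1 and Rec8 had log2 fold changes of -0.13 and 0.04. Among 18 genes of meiotic entry and germ cell identity 5 could be tested; in S-phase-rich nuclei Nanos3 was higher (1.02, edgeR adjusted p = 0.0179) and Brdt lower (-0.34, edgeR adjusted p = 0.041), both lost with DESeq2 and the call for Brdt also with any animal left out, and none was called in mitosis-rich nuclei, where Zbtb16 and Ythdc2 had -0.08 and 0.07. In the piRNA list, whose genes silence transposons in germ cells, 5 of 18 genes were tested in S-phase-rich and 6 in mitosis-rich nuclei, and Tdrkh was higher and Tdrd7 lower in both comparisons (0.41 and -0.67 in S-phase-rich, 0.37 and -0.54 in mitosis-rich nuclei), and the call for Tdrkh in mitosis-rich nuclei was lost with DESeq2 and without RP2. None of 12 spermatid genes had enough transcripts to test there; Acr and Gapdhs had the highest levels of that list, at mean levels of 2.43 and 0.865 CPM.

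A list of 10 somatic counterparts of the set was read in the same way. Cep55, the abscission protein that TEX14 binds in germ cell bridges, was higher by a log2 fold change of 1.28 in S-phase-rich nuclei (SE 0.28, edgeR adjusted p = 0.00257) and of 3.69 in mitosis-rich nuclei (SE 0.21, edgeR adjusted p = 5.24e-10). Rad21 and Ybx1 were higher by 0.38 and 0.49 in S-phase-rich and by 1.12 and 0.51 in mitosis-rich nuclei. In all, 5 of the 10 were higher in S-phase-rich nuclei and 6 in mitosis-rich nuclei, none lower, beside 14% and 12.8% of all genes called higher. Across animals, Stag2 ranged from 202 to 278 CPM over the 4 tumors.

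Of 12 germline gene repressors, 5 were higher and 2 lower in S-phase-rich nuclei, and 5 higher and 1 lower in mitosis-rich nuclei. Of all genes, 14% were higher and 14.2% lower in S-phase-rich nuclei, and 12.8% and 13.5% in mitosis-rich nuclei. Uhrf1, which brings Dnmt1 to newly copied DNA, was higher by 2.35 (SE 0.15, edgeR adjusted p = 6.75e-09) and 2.06, and Dnmt1, the maintenance methyltransferase, by 0.71 in S-phase-rich nuclei. E2f6 was higher by 0.71 and 0.56, L3mbtl2 by 0.53 and 1.15, and Atf7ip by 0.60 in mitosis-rich nuclei. Between the genotypes none of the 12 was called, and E2f6 was nearly level over the tumors, at 24.5, 24, 23.6 and 23.7 CPM. Dnmt1 and Ehmt1, the 2 most abundant of the list, had log2 fold changes of -0.13 and -0.12 between the genotypes.

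Between tumor-like and other named nuclei the lists had calls in both directions. In the recombination list 6 of 23 tested genes were higher and 2 lower, among them Hfm1 (0.71, SE 0.10, edgeR adjusted p = 0.00107) and Mei4 (0.50, edgeR adjusted p = 0.00637), and on the lower side Hsf2bp (-0.94, edgeR adjusted p = 0.0252) and Tex11 (-0.68, edgeR adjusted p = 0.0415), both of which lay under 3 CPM in every tumor. In the axis list Rec8 (0.51), Syce2 (0.51) and Sun1 (0.40) were higher and Majin (-1.12) lower, of 10 tested. The entry list had 4 higher and 1 lower of 7 tested (Nanos3 0.42, Lin28a 0.39, Brdt 0.38 and Zbtb16 -0.29), and the piRNA list 2 higher and 2 lower of 9 (Tdrkh 0.58, Tdrd5 0.54, Tdrd7 -0.58 and Piwil2 -0.86). Somatic counterparts were higher in 5 of 10 (Cep55 0.41, Rad21 0.28 and Stag1 0.22 among them) and repressors higher in 5 and lower in 2 of 12 (Uhrf1 0.45, Pcgf6 0.42, Dnmt1 0.34 and L3mbtl2 0.33 among them), beside 38.2% of all genes called. Acr and Gapdhs of the spermatid list, of which 3 genes were tested, had 0.24 and -0.04.

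No gene of the 7 lists was called by edgeR between the genotypes. The most abundant genes of each list had log2 fold changes of -0.17 (Sun1) and -0.14 (Rec8), -0.34 (Tex15) and 0.55 (Mlh3), 0.85 (Zbtb16) and 0.28 (Ythdc2), -0.11 (Tdrkh) and 0.04 (Tdrd7), and 0.25 (Stag1) and 0.38 (Stag2). Acr, an acrosomal protease, was at 0.51 and 0.988 CPM in the RP tumors and at 5.62 and 2.61 in the RPC tumors (log2 fold change 2.40, SE 0.56, edgeR adjusted p = 0.273), and DESeq2 called it. Gapdhs had a log2 fold change of -0.46.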

How the data were processed

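Single-nucleus libraries were made from 4 tumors with a combinatorial barcoding kit (Parse Evercode), in 7 sublibraries that each pool all animals. The deposited values are raw counts of unique transcripts per gene and nucleus, which the authors obtained with the Parse pipeline on GRCm39. Nuclei with under 300 transcripts, over 10% mitochondrial transcripts or over 12000 genes were removed, following the limits of the study. Of 12 columns of the table of nuclei, 8 were not used. Total deposited counts per animal were 32299909 to 72446861.

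Nuclei were clustered with leidenalg 0.10.2 (2000 variable genes, 20 components, resolution 0.4) and named from marker lists, by a scoring rule set after the clusters were seen. No doublet caller was run; nuclei above 4 times their animal's median transcripts were left out as an alternative. Counts were summed per animal and class and tested in edgeR 4.0.16 by its quasi-likelihood F-test (R 4.3.3, TMM scaling, filterByExpr), two-sided, with Benjamini-Hochberg adjustment over all genes tested and a threshold of 0.05. The SE is the log2 fold change divided by the root of F. Comparisons within animals had the animal as a block. DESeq2 1.42.0 was an alternative. The test was checked on simulated counts. The numbers 1 and 2 in the labels were not taken to pair animals.

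The 10 genes and all lists were chosen with earlier results of these data known. Named besides the 10 genes were, for each list and comparison, up to 4 called genes with the widest change or, where none was called, the 2 with the highest mean CPM. The added comparison with clusters of little tumor RNA was chosen after seeing the data. Promoter motifs were searched as GGCGGGA first and as the shorter core after that result had been seen. Of the genes this rule selects, 1 is not reported here.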

Additional observations from a re-analysis of the deposited data

Results flagged for a closer look

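In 3 cases both animals of a genotype moved one way and both of the other the opposite way; these differences between the genotypes were not tested. Stag3 in tumor-like against other named nuclei had log2 ratios of -0.08 and -1.20 in RP1 and RP2 and of 0.55 and 0.45 in RPC1 and RPC2, a mean difference of 1.14. Smc1b in S-phase-rich against non-cycling nuclei had -0.99 and -0.52 in the RP and 2.13 and 0.72 in the RPC tumors, a mean difference of 2.18. In mitosis-rich nuclei Smc1b had -0.14 and -0.15 in the RP and 2.51 and 0.69 in the RPC tumors, a mean difference of 1.74. The RPC1 values of Smc1b rest on 1 transcript in its non-cycling nuclei.

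The 2326 unnamed nuclei, which entered no comparison, also held transcripts of the set above the 3 that a count of 0 allows. Over all animals these were 55 of Dmc1, 65 of Tex14, 22 of Ybx2, 40 of Cntd1, 44 of Banf2, 22 of Stag3 and 23 of Smc1b.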

How the results depend on the processing

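Between the genotypes, edgeR called 0 genes, DESeq2 649 and edgeR without a filter on low counts 10, and leaving out 1 animal gave 0 to 3. With the replicate block, that is the label numbers 1 and 2 as a block, the count was 0. The deviations of same-numbered animals had a correlation of -0.0414. With 2 animals per genotype this value cannot exclude a pairing. Tumor-like against other named nuclei gave 7202 genes, but 2975 against endothelial-like nuclei only and 2505 with no animal block, and 5066 to 6229 with 1 animal left out. S-phase-rich nuclei had 3736 genes called, 2453 with DESeq2 and 2857 to 3159 with 1 animal left out, and mitosis-rich nuclei 3791 and 2735 to 3397. The causes were not tested, other than that fewer samples entered the fits without an animal. Log2 fold changes of single list genes turned their direction as follows, and of these only that of Zbtb16 at 0.50 was called. Tex11 turned to 0.79 and Acr to -1.17 against endothelial-like nuclei only, and Zbtb16 to 0.50 against macrophage- or monocyte-like nuclei only. Gapdhs in tumor-like nuclei turned to 0.59 and 0.42 against these classes, 0.03 with DESeq2 and 0.04 without the filter on low counts, and ran from -0.25 to 0.12 with 1 animal left out. In mitosis-rich nuclei without that filter Sun1 turned to 0.01 and Zbtb16 to 0.06. With 1 animal left out, Rec8 ran from -0.36 to 0.06, Tex15 from -0.98 to 0.12 and Tdrd7 from -0.12 to 0.24 between the genotypes, and Rec8 from -0.04 to 0.11 in mitosis-rich nuclei.

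For the set in the cell cycle comparisons, 56 values of the S phase comparison and 65 of the mitosis comparison kept direction and call over the alternatives, 2 in each gained a call (Tex14), 1 in each turned its direction (Tex14 without RPC2; with 1 animal left out it ran from -0.42 to 1.18 and from -0.52 to 1.03) and 1 in each lost its call (Dmc1 in S-phase-rich and Stag3 in mitosis-rich nuclei, both with DESeq2). Few non-cycling transcripts limit Dmc1, Stag3, Smc1b and Ybx2, and Sycp1, Sycp3 and Meioc were at the limit of depth.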

Other observations

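The class of T or NK cell-like nuclei in RPC2 had Tex14 at 135 CPM, on 25 transcripts in 37 nuclei, and the mesothelial-like nuclei of that animal at 117 CPM, on 6 transcripts in 8 nuclei. Both classes are small, and no comparison was made with them.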
